A study of Mus musculus with 10 samples.

Results

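Crem, Nr4a1, Nr4a2, Nr4a3, Egr1, Egr2, Egr3 and Per1 encode transcriptional regulators whose genes are switched on quickly by cyclic AMP or by the T cell receptor. They were taken as a set by name, and all 8 of them lay among the 11938 genes kept for testing, of 18193 mouse genes with a probe set of their own. Each gene was read by the brightest probe set annotated to it alone, and its other probe sets served as a check. The 8 genes had 20 such probe sets, of which 11 lay at or above the array median on all 10 arrays, 3 on some arrays and 6 on none.

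The study measured RNA of sorted mouse CD4 T cells on 10 Affymetrix arrays, 1 for each of 10 groups, to compare cells with and without the regulatory T cell factor Foxp3 and with forced expression of the phosphodiesterase PDE3B. All cells came from pooled lymph node and spleen, and the donors were females of 6 to 8 weeks. The 10 arrays form separate experiments, 7 of freshly sorted cells and 3 of transduced cells, which the authors normalized together. The number of mice behind an array was not given in the labels.

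Homozygous Foxp3 gfp females (C57BL/6, backcross 8 to 10 from 129/Sv) carry a knock-in in which Foxp3 is joined to green fluorescent protein (GFP). Their GFP-positive regulatory T cells are the group GFPfoxp3. Their cells without GFP were split by CD25, the alpha subunit of the receptor for IL-2, into CD25neg and CD25pos. Foxp3 gfpko/wt females (backcross 5) make GFP instead of Foxp3 from 1 X-linked allele and supplied GFP-positive cells that read the mutant locus (GFPko). These females also hold cells that use the intact allele. For GFPfoxp3, GFPko and CD25pos a further array came from mice that had received IL-2 at 50 ng per g, 4 times in 24 h, and whose cells were isolated 30 min after the last dose. Whether the untreated mice received the vehicle is not stated for their arrays.

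For the transduced cells, CD25+ CD4+ cells of C57BL/6 mice were stimulated in culture with antibodies to CD3 and CD28 at 100 ng per ml and with IL-2 at 100 U per ml. MigR1, a retroviral vector with GFP as its marker, was introduced either empty or with PDE3B or its mutant PDE3B-H801A. The cells were then transferred into mice lacking TCRalpha, together with CD25- CD4+ cells given the same vector, and 3 weeks later the transduced cells of regulatory origin were sorted as GITR+ CD4+ GFP+ and negative for Ly5.1, the mark of the co-transferred cells. GITR stood in for Foxp3 in that sort. The 3 groups are called empty vector, PDE3B vector and H801A vector here.

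Cyclic AMP activates protein kinase A, which phosphorylates the factor CREB on the element TGACGTCA or on its shorter core TGACG. Crem is a CREB relative, and ICER, made from a promoter inside the gene, is a cAMP-induced repressor of the same elements. The Nr4a genes encode orphan nuclear receptors and the Egr genes zinc finger factors, and both families are immediate early genes of T cell receptor signalling, the Egr genes through serum response factor bound to CArG boxes. In T cells, Egr2 and Egr3 restrain activation, and Nr4a factors take part in the making of regulatory T cells. PDE3B breaks down cyclic AMP. Per1 is a circadian clock component that cAMP also induces.

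Promoter sequence was taken from RefSeq (assembly GRCm38.p6, 250 bases before each annotated start) for 5 of the 8 genes, Nr4a1, Nr4a2, Nr4a3, Egr2 and Per1. Windows of Crem, Egr1 and Egr3 were not part of the search, so their promoters are not described here. The core TGACG on either strand was present in 17.7% of all 32817 windows, and the full element TGACGTCA in 1.55%. Each of the 3 Nr4a windows held 4 copies of the core, a number reached or passed by 45 windows, 0.137% of all. None of the 3 held the full element. The windows of Nr4a1 and Nr4a2 had GC contents of 74.4% and 80.0%, against a mean of 53.2% over all windows. They are shown whole, and a stretch of 30 bases is shown for the others. The window of Nr4a3, also with 4 cores, is cut because the first annotated base of the gene, 48045078, lies within it. Capitals mark TGACG or its reverse complement CGTCA and, in Egr2, also a CArG box. Every sequence is in the direction of transcription, with coordinates of GRCm38.p6.
Nr4a1, chr15:101266596-101266845, plus strand: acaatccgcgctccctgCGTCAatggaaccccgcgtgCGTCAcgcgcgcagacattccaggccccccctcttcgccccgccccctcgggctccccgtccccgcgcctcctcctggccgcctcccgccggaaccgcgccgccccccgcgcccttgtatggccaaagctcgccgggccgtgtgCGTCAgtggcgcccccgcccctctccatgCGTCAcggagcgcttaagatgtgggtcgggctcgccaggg
Nr4a2, chr2:57124004-57124253, minus strand: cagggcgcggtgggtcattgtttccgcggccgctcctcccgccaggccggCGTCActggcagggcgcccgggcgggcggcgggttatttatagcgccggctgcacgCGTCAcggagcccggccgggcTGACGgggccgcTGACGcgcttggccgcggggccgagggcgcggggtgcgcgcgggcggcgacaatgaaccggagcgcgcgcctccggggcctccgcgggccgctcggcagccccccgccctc
Nr4a3, chr4:48045070-48045099, plus strand: agggTGACGtagcgtcccatgtCGTCAcat
Egr2, chr10:67537793-67537822, plus strand: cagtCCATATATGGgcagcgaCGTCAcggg
Per1, chr11:69100007-69100036, plus strand: tgagctcagcggcTGACGtcggtttccctg

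The first base of the cores lay 233, 213, 69 and 40 bases before the start of Nr4a1, and 200, 144, 123 and 111 bases before that of Nr4a2. In Nr4a3 the distances were 231, 213, 205 and 147 bases. Egr2 has several annotated starts with overlapping windows, of which 3 held 2 cores and a CArG box, a motif found in 1.47% of all windows. Each of the 2 Per1 windows held 1 core. The Egr binding motif, searched as GCGTGGGCG or GCGGGGGCG on either strand and found in 3.06% of windows, occurred once among the members' sequences, in Nr4a1. A match is a string of letters and not a measured binding site, and no binding was measured in this study.

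Before the members, the groups were checked on Foxp3 and on cell type markers. The Foxp3 probe set read 2.45 to 3.90 in CD25neg and CD25pos cells, 8.33 and 9.40 in GFPko cells, and 10.86 to 11.52 in GFPfoxp3 and transduced cells (log2 level), and the locus without the protein is still transcribed by design. All 7 measured T cell markers lay above the array median on every array. Of 7 measured B cell markers 3 or 4 lay above it, and Cd79a, Blk and Pax5 were below it on all arrays. None of the 2 measured erythroid markers exceeded it. The signal of Actb at the 3′ end over the 5′ end was 2.70 to 3.80 log2 units in sorted cells and 5.87 to 6.38 in transduced cells. Levels of bulk RNA cannot tell fewer cells expressing a gene apart from less RNA per cell.

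Crem stood apart between populations. On the log2 scale it read 6.44 in CD25neg, 6.17 in CD25pos, 6.57 in CD25pos with IL-2, 6.96 in GFPko and 7.44 in GFPko with IL-2. It read 8.51 in GFPfoxp3, 9.42 in GFPfoxp3 with IL-2, 8.42, 8.37 and 8.29 on the arrays of the empty, PDE3B and H801A vectors. The 5 arrays of Foxp3-expressing cells, GFPfoxp3 and transduced, all lay above the 5 others. Crem was the 1 member of 8 with that order, which 604 genes or 5.06% of all tested genes shared. Between the highest array of the lower 5 and the lowest of the upper 5 the gap was 0.85, or 5.14 times the fitted SD of 0.16. This SD, here and for the other genes, comes from 6 sorted arrays, without CD25neg and the transduced arrays. It does not measure the spread between experiments. The 3 transduced arrays and untreated GFPfoxp3 followed each other in steps of at most 0.09, less than that SD, while IL-2-treated GFPfoxp3 lay 0.92 above them.

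GFPfoxp3, GFPko and CD25pos each had an untreated and an IL-2-treated array, and these 6 were fitted together. Crem was higher in GFPfoxp3 than in GFPko by 1.77 log2 units (SE 0.16, 95% interval 1.32 to 2.21), a 3.40-fold difference (limma, adjusted p = 0.0161). The difference was 1.55 between the untreated arrays and 1.98 between the IL-2-treated ones. Against CD25pos it was 2.59 (SE 0.16, 95% interval 2.15 to 3.04), or 6.04-fold, with an adjusted p of 0.00715. GFPko exceeded CD25pos by 0.83 (95% interval 0.38 to 1.27), with an adjusted p of 0.089, which missed the threshold of 0.05. These 3 comparisons share arrays and are not independent. The fit has 1 array per cell of the design, and its p-values rest on how well a difference repeated with and without IL-2, not on the spread between animals. For Crem against GFPko the call did not hold with no filter on dim genes (limma, adjusted p = 0.0551). The untreated or IL-2-treated pair alone holds 1 array a side and has no spread of its own, and with the spread borrowed from the 6 arrays the adjusted p was 0.0766 and 0.0510.

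The second Crem probe set also placed the 5 arrays of Foxp3-expressing cells above the 5 others. It read 5.59 in CD25neg, 5.66 and 6.28 in CD25pos without and with IL-2, 5.91 and 6.46 in GFPko, and 8.00 and 8.46 in GFPfoxp3. The transduced arrays read 8.33, 8.05 and 8.30. Within the groups of 5 the order differed: CD25pos was here above CD25neg, and untreated GFPfoxp3 below the 3 transduced arrays. With this probe set GFPfoxp3 exceeded GFPko by 2.05 (SE 0.10, limma, adjusted p = 0.00669) and CD25pos by 2.26 (adjusted p = 0.00512). GFPko and CD25pos differed by 0.21 (adjusted p = 0.361), less than with the brighter probe set. The probe sets correlated with r = 0.95 over the 10 arrays, and the other 2 Crem probe sets lay near background. Which Crem forms each probe set reads, ICER included, was not determined.

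Several other measures differed between the same populations. GFPfoxp3, CD25pos and CD25neg cells came from mice backcrossed further than GFPko mice. Strain background and Foxp3 genotype therefore cannot be told apart where GFPko is compared with any of them. The summed linear level of the B cell markers was 974.9 to 1387.7 in GFPko, 2235.3 to 2369.3 in CD25pos, 4500.1 to 4883.6 in GFPfoxp3 and 5996.4 to 6813.8 in transduced cells, with Cd74, Ighm and Cd79b higher in GFPfoxp3 than in GFPko by 3.11, 2.03 and 1.65 log2 units (limma, adjusted p = 0.0122, 0.0116 and 0.0121). The B cell sum was mostly Ighm, at 9.805 to 12.568 over the 10 arrays, while no other B cell marker exceeded 9.03. Ms4a1, at 3.31 to 4.16, lay above the array median on all arrays, and Cd79a, Blk and Pax5 lay below it. The summed level of CD8 and NK cell markers was 594.8 in CD25neg, 606.3 to 804.0 in CD25pos, 73.4 to 104.8 in GFPko and 63.7 to 68.3 in GFPfoxp3. In CD25neg and CD25pos it was mostly Klrd1, at 8.88 to 9.46. Klrk1 and Prf1 were also lower in GFPko and GFPfoxp3 than in CD25pos. Cd8a read 3.13 to 3.30 on all arrays, and Cd8b1 was higher in GFPko than in CD25pos. The part of these markers in the Crem difference was not tested.

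**Figure D1:**
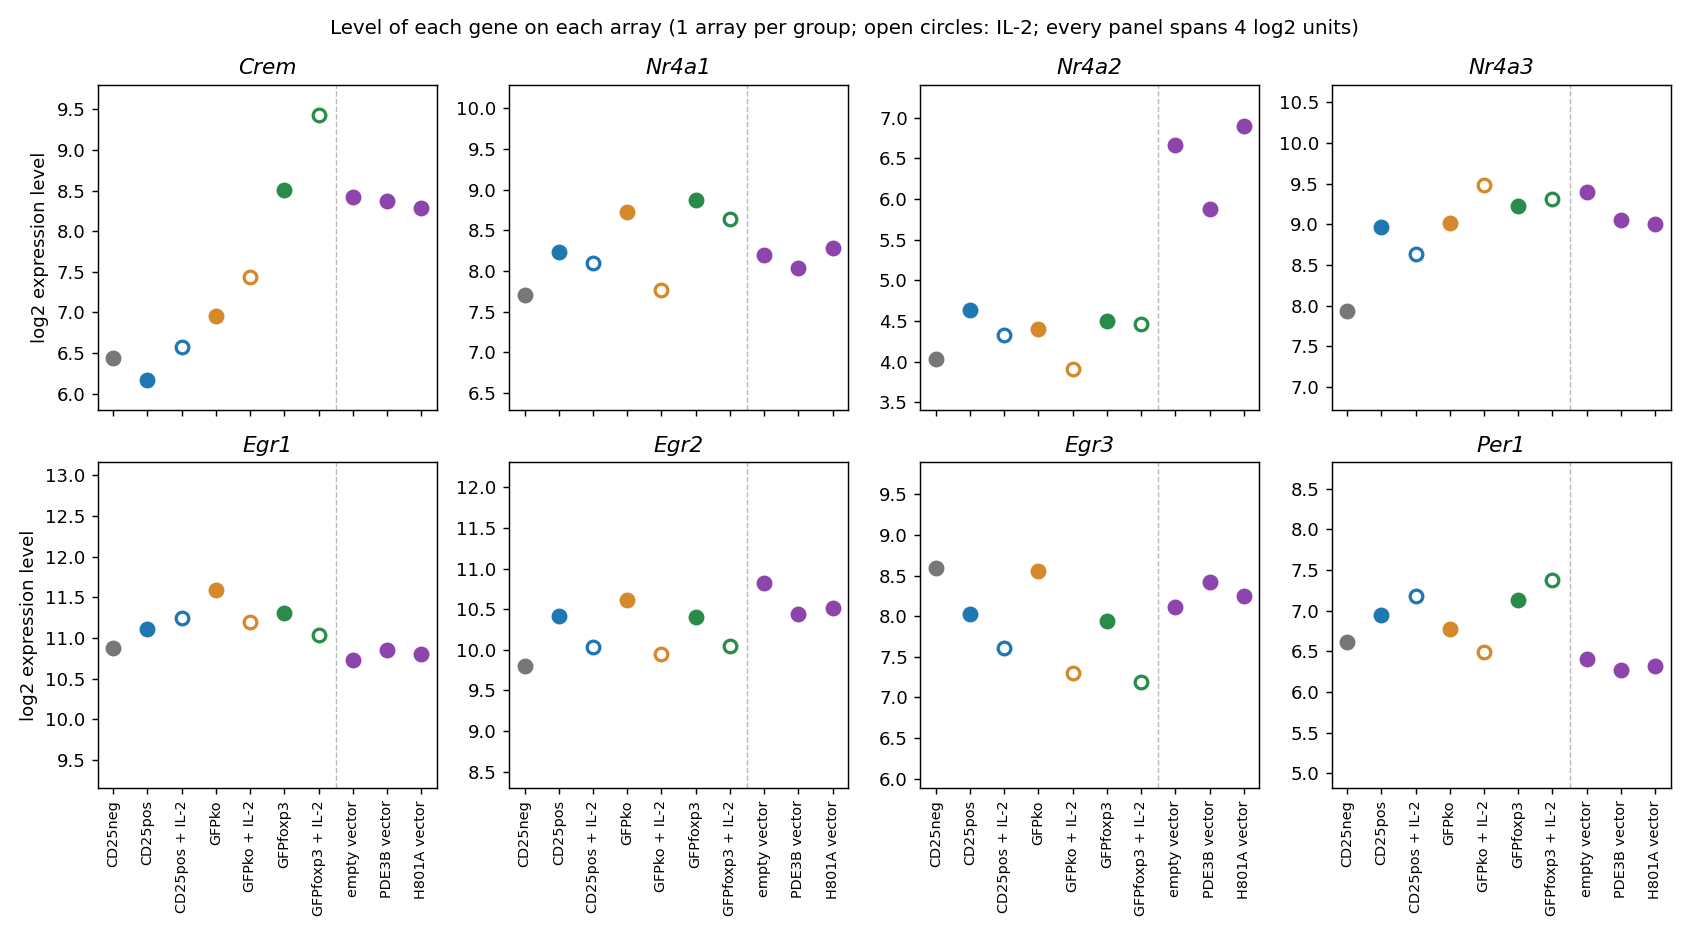
Log2 expression level of each of the 8 genes (y axis) on each of the 10 arrays (x axis), 1 circle per array and 1 panel per gene, open circles for IL-2 and the transduced cells to the right of the dashed line. Crem is high in GFPfoxp3 and transduced cells (8.29 to 9.42) and lower in the other 5 arrays (6.17 to 7.44), and Nr4a2 is highest in the transduced cells (5.88 to 6.90).

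**Figure D2:**
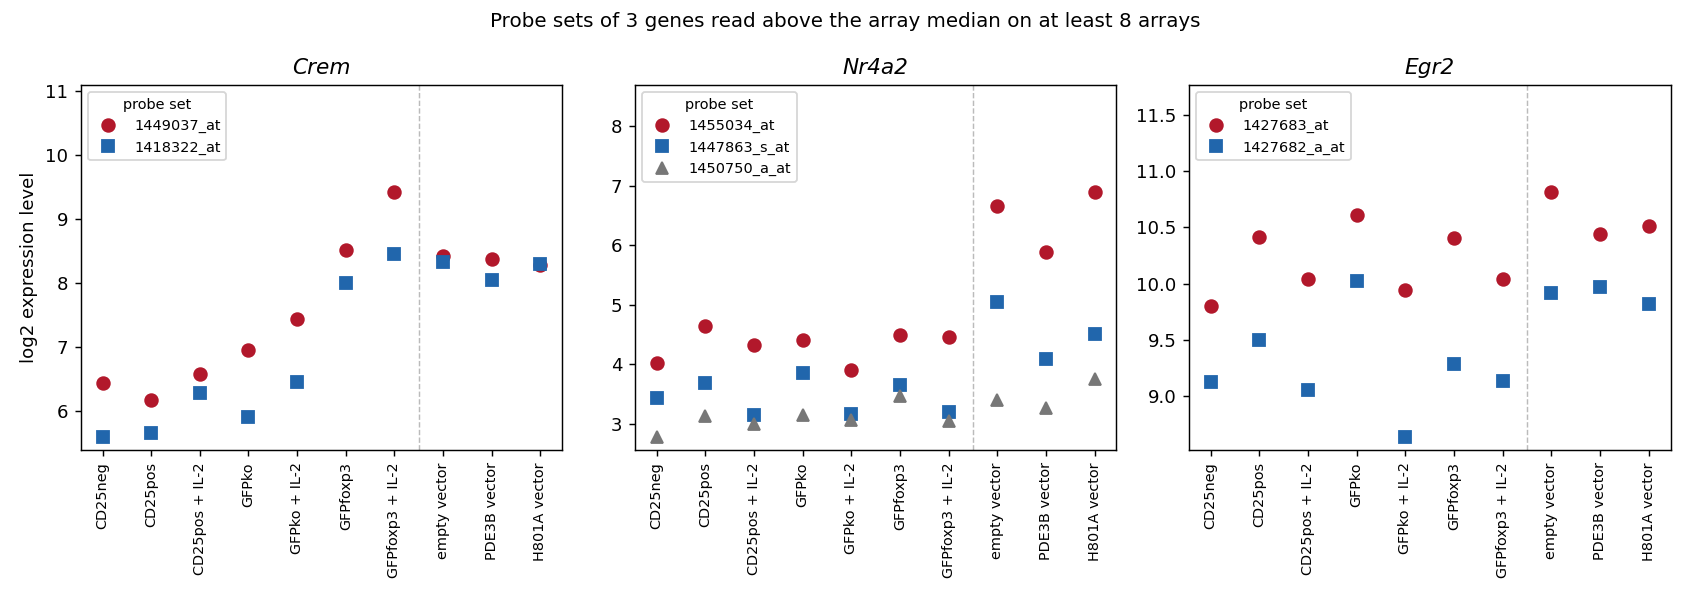
Log2 expression level (y axis) on the 10 arrays (x axis) for the probe sets of Crem, Nr4a2 and Egr2 that lay above the array median on at least 8 arrays, 1 colour and symbol per probe set. Both Crem probe sets are higher in the 5 arrays of Foxp3-expressing cells than in the other 5.

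The remaining 7 members did not pass the test between GFPfoxp3 and GFPko, so 1 of 8 was called, against 7.47% of all genes tested. The same count of 1 of 8 held against CD25pos, where 8.73% of genes were called. Between GFPko and CD25pos 0 of 8 were called by limma, against 3.48% of genes, and 1 of 8, Crem, had an unadjusted p under 0.05, against 20.3%. Both GFPfoxp3 arrays lay above both GFPko arrays for Crem, Nr4a2 and Per1, 3 of 8 members against 27.3% of genes.

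Per1 came closest after Crem. It read 6.61 in CD25neg, 6.94 and 7.18 in CD25pos without and with IL-2, 6.77 and 6.49 in GFPko, and 7.13 and 7.38 in GFPfoxp3. The transduced arrays were the lowest, at 6.40, 6.27 and 6.32. GFPfoxp3 and GFPko differed by 0.62 (SE 0.17, 95% interval 0.15 to 1.10, limma adjusted p = 0.118), with 0.36 between untreated and 0.89 between IL-2-treated arrays. Against CD25pos the difference was 0.19 (adjusted p = 0.581). Each array of the Per1 order differed from the next by at most 0.19, close to the fitted SD of 0.17.

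Of the circadian clock genes fixed as a list, 15 of 17 were kept. In GFPfoxp3 against GFPko 1 was higher and 0 lower, against 7.47% of all genes called. The median difference was 0.13 against 0.01 over all genes. The gene called was Nfil3, a leucine zipper factor of the clock that cAMP also induces, at 1.19 (limma, adjusted p = 0.0194). In GFPko against CD25pos Nfil3 was higher by 1.59 (adjusted p = 0.0207) and Rora, an orphan receptor of the clock loop, was lower by 1.44, that is -1.44 (adjusted p = 0.0487).

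The Nr4a genes followed 3 different patterns. Nr4a1 (Nur77), often used as a reporter of recent T cell receptor signalling, read 7.71 in CD25neg, 8.23 and 8.10 in CD25pos without and with IL-2, 8.73 and 7.77 in GFPko, and 8.87 and 8.64 in GFPfoxp3. The transduced arrays read 8.20, 8.04 and 8.28. CD25neg was the lowest array and untreated GFPfoxp3 the highest. Untreated GFPko lay 0.14 below GFPfoxp3, within the fitted SD of 0.24, while with IL-2 the gap was 0.88. The fitted difference between GFPfoxp3 and GFPko was 0.51 (95% interval -0.14 to 1.16, limma adjusted p = 0.282).

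Nr4a3 (Nor1) read 7.94 in CD25neg, 8.96 and 8.63 in CD25pos without and with IL-2, 9.02 and 9.49 in GFPko, and 9.23 and 9.31 in GFPfoxp3. The transduced arrays read 9.40, 9.05 and 9.00. CD25neg, which is not in the fit, lay 0.69 below the next array, 3.19 times the fitted SD of 0.22. Every further step in the order was 0.33 or less. GFPfoxp3 and GFPko differed by 0.02 (adjusted p = 0.972) and GFPfoxp3 and CD25pos by 0.47 (limma, adjusted p = 0.279).

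Nr4a2 (Nurr1) was dim in all sorted cells and brighter in transduced cells. It read 4.03 in CD25neg, 4.64 and 4.33 in CD25pos without and with IL-2, 4.40 and 3.90 in GFPko, and 4.50 and 4.46 in GFPfoxp3. On the empty, PDE3B and H801A vector arrays it read 6.66, 5.88 and 6.90. The lowest transduced array lay 1.24 above the highest sorted array. The fitted SD of 0.15 comes from sorted arrays alone and cannot gauge a gap between experiments. Its second probe set gave 3.15 to 3.85 in sorted cells and 5.05, 4.09 and 4.51 in transduced cells, again without overlap. The third probe set, above the array median on 8 arrays, did overlap, at 2.78 to 3.46 in sorted cells and 3.40, 3.28 and 3.75 in transduced cells, with untreated GFPfoxp3 above the empty and PDE3B vectors. By the brightest probe set Nr4a2 was the 1 member of 8 with all transduced arrays above all sorted ones, against 17.5% of genes. Egr1 and Per1 lay below, 2 of 8 against 25.2%. Culture, retroviral infection, passage through recipients and RNA length differ between these experiments together with the cells, and cannot be told apart.

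Egr1, a zinc finger factor induced by the ERK pathway, had the narrowest range of the Egr genes. It read 10.88 in CD25neg, 11.12 and 11.25 in CD25pos without and with IL-2, 11.59 and 11.19 in GFPko, and 11.31 and 11.03 in GFPfoxp3. The transduced arrays read 10.74, 10.85 and 10.81. Untreated GFPko was the highest array, 0.28 above the next, and the transduced arrays were the lowest. The difference between GFPfoxp3 and GFPko was -0.22 (limma, adjusted p = 0.476).

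Egr2 read 9.80 in CD25neg, 10.42 and 10.04 in CD25pos without and with IL-2, 10.61 and 9.95 in GFPko, and 10.41 and 10.04 in GFPfoxp3. The transduced arrays read 10.82, 10.44 and 10.51. By this probe set the 3 IL-2-treated arrays and CD25neg were the 4 lowest, and a gap of 0.37, or 2.94 times the fitted SD of 0.12, set them below the other 6. The populations did not pass the test, at -0.05 between GFPfoxp3 and GFPko (95% interval -0.39 to 0.28) and -0.00 between GFPfoxp3 and CD25pos (limma, adjusted p = 0.818 and 0.993). The second Egr2 probe set had the same 4 lowest arrays, but with 9.13 for the highest of them and 9.29 for the next array. With it GFPfoxp3 against GFPko gave -0.73 between untreated and 0.50 between IL-2-treated arrays, and -0.12 in the fit (limma, adjusted p = 0.851).

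Egr3 read 8.59 in CD25neg, 8.02 and 7.61 in CD25pos without and with IL-2, 8.56 and 7.31 in GFPko, and 7.94 and 7.19 in GFPfoxp3. The transduced arrays read 8.11, 8.42 and 8.24. The 3 IL-2-treated arrays were the lowest of all 10, and CD25neg and untreated GFPko the highest. Of the members read here, Egr3 was the 1 with its highest level in CD25neg. GFPfoxp3 and GFPko differed by -0.37 (limma, adjusted p = 0.394).

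**Figure D3:**
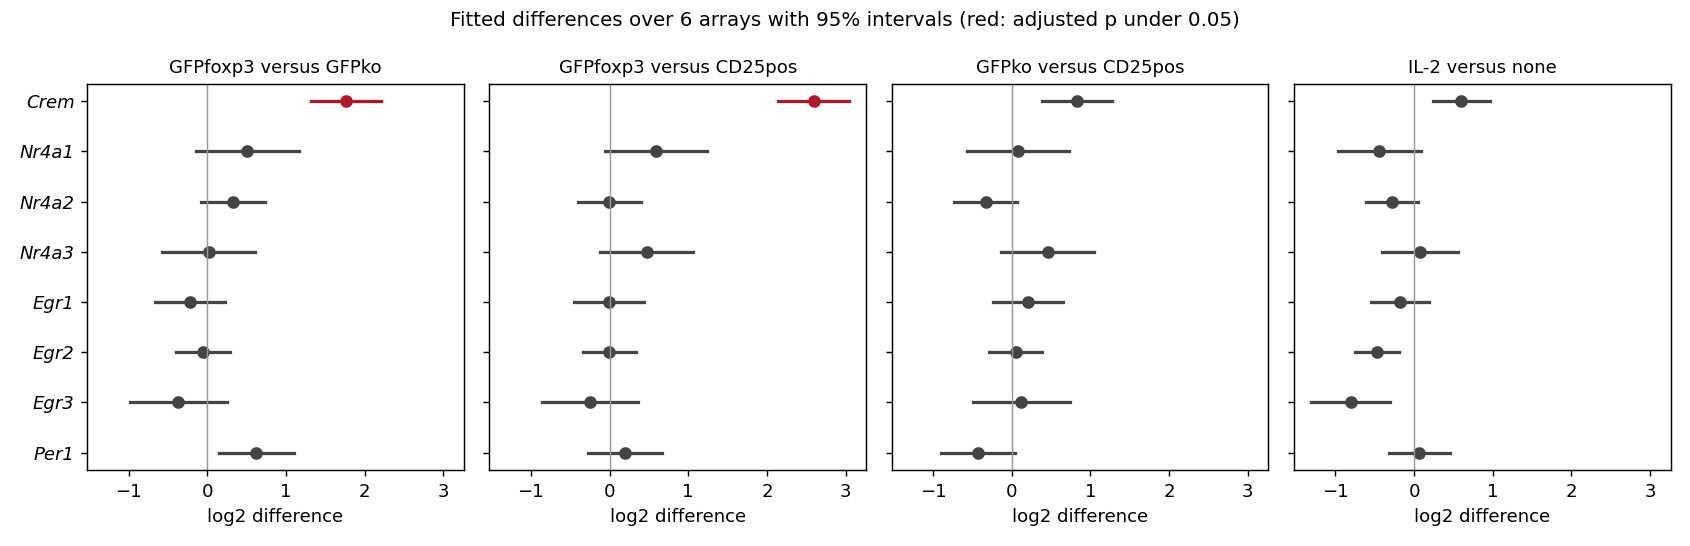
Log2 difference (x axis) with its 95% interval for each of the 8 genes (y axis) in the 4 comparisons of the fit over 6 arrays, drawn in red where the limma adjusted p was under 0.05. Crem in GFPfoxp3 against GFPko (1.77) and against CD25pos (2.59) are the red points.

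CD25neg was set against each other untreated population, with 1 array on each side and therefore no test. Differences of at least 2-fold were counted, against the share of all genes that far apart. In CD25pos against CD25neg 1 of 8 members, Nr4a3, reached it at 1.02, against 7.25% of genes. In GFPko against CD25neg 2 of 8 did, Nr4a1 at 1.02 and Nr4a3 at 1.08, against 6.73%. In GFPfoxp3 against CD25neg 3 of 8 did, Crem at 2.07, Nr4a3 at 1.29 and Nr4a1 at 1.16, against 10.9%. These comparisons share the CD25neg array, which was the lowest of all 10 for Nr4a1, Nr4a3 and Egr2, 3 of 8 members against 11.2% of genes.

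Below 2-fold, Egr2 was above CD25neg by 0.62 in CD25pos, 0.81 in GFPko and 0.61 in GFPfoxp3, and Egr1 by 0.24, 0.71 and 0.43. Egr3 stood at -0.57, -0.03 and -0.65. The values of 1.02 lie at the edge of the 2-fold threshold of 1 log2 unit, and these counts moved with centring or with another reading of the probe sets.

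IL-2 left none of the 8 genes past the threshold. In the same fit, which takes the effect of IL-2 as common to the 3 populations, 0 of 8 members were called by limma, against 0.235% of genes, all of them higher. At an unadjusted p under 0.05 there were 3 of 8, against 10.6% of genes. These were Egr3 at -0.81 (SE 0.18, 95% interval -1.31 to -0.30, adjusted p = 0.334), Egr2 at -0.47 (SE 0.10, adjusted p = 0.309) and Crem at 0.60 (SE 0.13, adjusted p = 0.325).

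The direction was the same in all 3 populations for 5 members. Egr3 differed with IL-2 by -0.41 in CD25pos, -1.25 in GFPko and -0.75 in GFPfoxp3. Egr2 differed by -0.38, -0.67 and -0.37, and its second probe set by -0.45, -1.39 and -0.15. Nr4a1 gave -0.13, -0.96 and -0.23, and Nr4a2 -0.31, -0.50 and -0.03. A negative sign in all 3 populations was thus seen in 4 of 8 members and in 18.2% of all genes. Crem gave 0.40, 0.48 and 0.92, a positive sign in all 3, as for 17.0% of genes, and its second probe set gave 0.62, 0.55 and 0.46. These signs were kept with each array centred.

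In single populations, Egr3 in GFPko was the 1 member of 8 that reached 2-fold, against 4.92% of genes. In GFPfoxp3 and CD25pos 0 of 8 did, against 1.95% and 1.35%. Egr1, Nr4a3 and Per1 had no common direction. Egr1 gave 0.13 in CD25pos, -0.40 in GFPko and -0.27 in GFPfoxp3, Nr4a3 gave -0.33, 0.47 and 0.08, and Per1 gave 0.24, -0.28 and 0.24. The Actb signal at the 3′ end over the 5′ end was also lower on the IL-2 arrays, at 2.86 against 3.80 in CD25pos, 2.76 against 3.69 in GFPko and 2.70 against 3.07 in GFPfoxp3. For Gapdh it was 5.243 against 6.426 in CD25pos and 5.265 against 5.939 in GFPko, but hardly changed in GFPfoxp3, at 5.532 against 5.55. All 10 kept heat shock and isolation stress genes were also negative with IL-2 in the fit, with a median of -0.15 against -0.00 over all genes, although 0 of them were called by limma. Hsph1, a co-chaperone, stood at -0.84 and Hspa1b at -0.87 (adjusted p = 0.108 and 0.362). The part of RNA length and of these stress genes in the IL-2 differences was not tested.

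**Figure D4:**
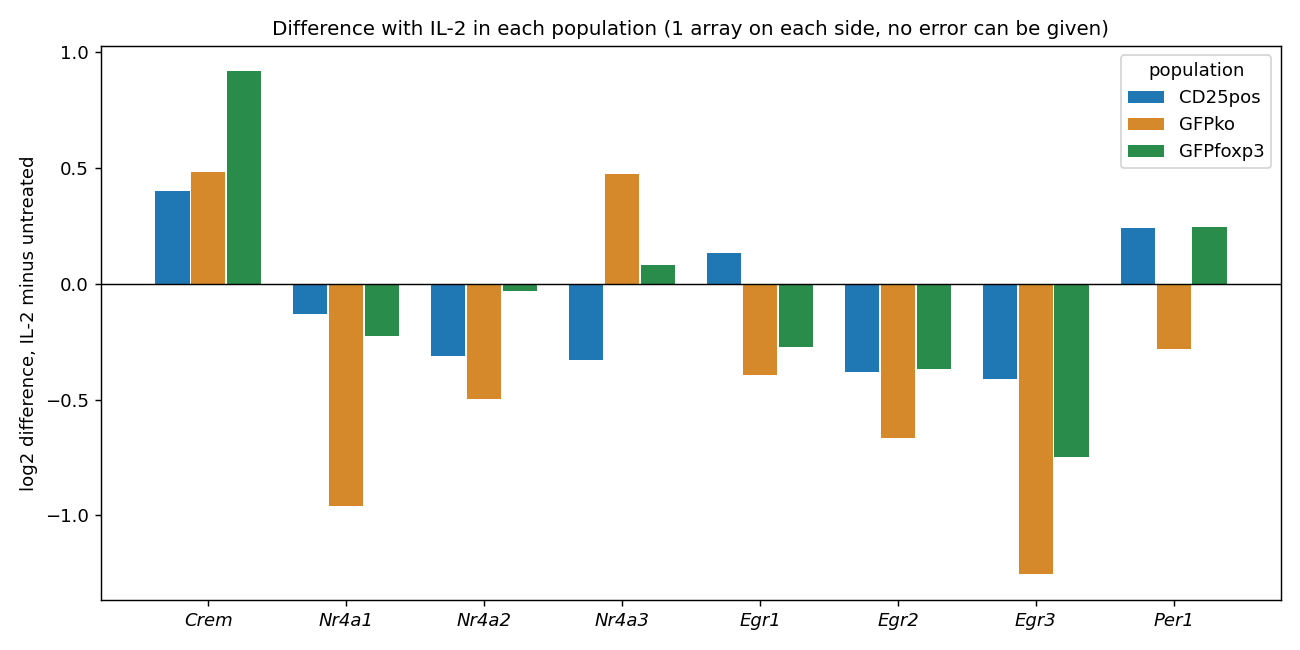
Log2 difference with IL-2 (y axis) for each of the 8 genes (x axis), 1 bar for each of CD25pos, GFPko and GFPfoxp3 cells, each bar being the IL-2 array minus the untreated array. Egr3, Egr2, Nr4a1 and Nr4a2 lie below 0 in all 3 populations and Crem above it.

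The transduced cells carry vectors with or without PDE3B, which degrades cyclic AMP, with 1 array per vector and no test. The single Pde3b probe set read 7.43 with the empty vector, 6.91 on the array labelled PDE3B and 7.54 on the array labelled H801A, so it showed no higher level on the array labelled PDE3B. Whether this probe set reads the RNA of the vector was not determined, and the vectors are named here by their labels alone. The array labelled PDE3B against the empty vector gave Crem at -0.05, Per1 at -0.13 and Nr4a1 at -0.16, and 0 of 8 members were 2-fold apart, against 5.44% of genes. H801A against the empty vector gave 0 of 8 as well, against 2.3%, with Crem at -0.13. Setting the median of the kept genes to be equal on all arrays shifts PDE3B against the empty vector by 0.22 for every gene, and Crem, Per1 and Nr4a1 then read 0.17, 0.08 and 0.05, so these 3 signs rest on the scaling. The values for the other members lay between -0.78 and 0.31 for PDE3B and between -0.40 and 0.24 for H801A.

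Nr4a2 was the member that differed most between vectors. The array labelled PDE3B against that labelled H801A gave -1.02 for Nr4a2, the 1 member of 8 at 2-fold, against 3.04% of genes. Against the empty vector it gave -0.78. Its second probe set gave -0.41 and -0.96 for the same comparisons, and -0.54 for H801A against the empty vector where the brighter one gave 0.24. Both probe sets put the array labelled PDE3B lowest, and ordered the other vectors differently. That array also had the highest Actb signal at the 3′ end over the 5′ end, at 6.38, against 5.87 for the empty vector and 5.95 for H801A. For Gapdh it was 7.995 against 7.616 and 7.475. The part of RNA length in the Nr4a2 difference was not tested. Crem differed by at most 0.13 among the 3 vectors with the brighter probe set. Its second probe set gave -0.28 for the array labelled PDE3B against the empty vector and -0.25 against H801A, where the brighter one gave 0.08.

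Neighbours of these genes in the pathway were counted by list. Of all tested genes 7.47% were called in GFPfoxp3 against GFPko, 8.73% in GFPfoxp3 against CD25pos, 3.48% in GFPko against CD25pos and 0.235% with IL-2. The counts of called genes in each list below stand against these shares. Of the CREB machinery, 13 of 14 genes were kept, and 0 were called in GFPfoxp3 against GFPko. Prkar2a, a regulatory subunit of protein kinase A, was lower in GFPfoxp3 than in CD25pos by 1.20 log2 units, that is -1.20 (limma, adjusted p = 0.0102), and in GFPko against CD25pos it stood at -1.14 (adjusted p = 0.022). The median differences of this list were -0.04, -0.05 and -0.09 in these comparisons, against 0.01, -0.03 and -0.01 over all genes. With IL-2 0 of 13 were called, with a median of -0.11 against -0.00. In GFPko alone 1 gene was 2-fold apart with IL-2, Prkaca, a catalytic subunit of protein kinase A, against 4.92% of all genes. It read 10.07 without and 8.06 with IL-2 in GFPko, 9.67 and 9.29 in CD25pos, and 9.50 and 9.35 in GFPfoxp3.

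Of other cAMP and CREB targets, 14 of 16 were kept. In GFPfoxp3 against GFPko 1 was higher, Nfil3, and 0 lower, and the median was -0.03. In GFPfoxp3 against CD25pos 2 were higher, Nfil3 at 2.78 (limma, adjusted p = 0.00516) and Dusp1, a MAP kinase phosphatase, at 1.20 (adjusted p = 0.0399), and 0 lower. The median there was -0.13. With IL-2 0 of the 14 were called.

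Of other immediate early genes, 25 of 26 were kept. In GFPfoxp3 against GFPko 0 were higher and 2 lower, Fos at -2.17 (limma, adjusted p = 0.0475) and Dusp6, a phosphatase of the ERK kinases, at -2.14 (adjusted p = 0.0238). In GFPko against CD25pos 4 were higher, the AP-1 subunits Fos at 3.01, Jun at 2.59 and Junb at 0.87 and the zinc finger factor Klf6 at 1.16 (adjusted p = 0.0384, 0.0375, 0.0323 and 0.0268), and 0 were lower. Fos read 11.55 and 12.02 in GFPko, 8.90 and 8.65 in CD25pos and 10.10 and 9.12 in GFPfoxp3. The list medians were 0.00 and 0.15.

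In GFPfoxp3 against CD25pos 4 of these 25 were higher and 1 lower, with Jun at 1.76, Dusp1 at 1.20 and Junb at 1.02 (limma, adjusted p = 0.0476, 0.0399 and 0.0138) and Dusp6 at -1.83 (adjusted p = 0.0285). With IL-2 0 of 25 were called.

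Of Egr partners and upstream factors, 9 of 10 were kept and 0 were called in any of the 4 comparisons. Nab2, a corepressor that binds Egr proteins and is itself an Egr target, read 8.00 without and 7.17 with IL-2 in CD25pos, 7.97 and 6.79 in GFPko, and 8.30 and 7.80 in GFPfoxp3. It was picked after its values were seen. Its common difference with IL-2 was -0.83 (SE 0.16, limma, adjusted p = 0.258), with the sign of Egr2 and Egr3. All 9 genes of the list had a negative common difference with IL-2, with a median of -0.12 against -0.00 over all genes. In CD25pos alone 5 of the 9 were positive, with a median of 0.03. The sign was not particular to this list, as 10 of 10 heat shock and 13 of 15 clock genes were negative too.

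Of T cell genes reported downstream of Egr and Nr4a factors, 19 of 20 were kept, and 4 were higher in GFPfoxp3 than in GFPko and 0 lower, against 7.47% of all genes called, with a median of 0.18 against 0.01. These were Nrn1 (neuritin, 4.99), the costimulatory receptor Tnfrsf9 (4-1BB, 2.70), the inhibitory receptor Ctla4 (1.37) and the Ikaros family factor Ikzf2 (Helios, 1.04), with limma adjusted p of 0.0052, 0.00826, 0.0233 and 0.0333. Against CD25pos 7 were higher and 0 lower, against 8.73% of all genes called. These included Nrn1 at 3.12, Ctla4 at 2.87, Ikzf2 at 2.69 and Ikzf4 (Eos) at 2.35 (adjusted p of 0.00549, 0.00549, 0.00545 and 0.00718), and the list median was 0.72 against -0.03 over all genes. Many genes of this list are also known regulatory T cell genes, and Egr2 and Egr3 themselves were not called in these comparisons. With IL-2 0 of 19 were called.

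Of 9 glucocorticoid-induced genes, all kept, 0 were called in GFPfoxp3 against GFPko. In GFPfoxp3 against CD25pos 1 was higher, Dusp1 at 1.20, and 2 were lower, Zbtb16 at -4.14 and Fkbp5 at -0.66 (limma, adjusted p = 0.0399, 0.00479 and 0.0354). In GFPko against CD25pos 0 were higher and 2 lower. Of 10 heat shock and isolation stress genes 1 was called in GFPfoxp3 against GFPko, Hsph1 at -0.94 (limma, adjusted p = 0.0238). In GFPfoxp3 against CD25pos 2 of the 10 were lower, Hsph1 at -1.05 and Hspd1 at -0.82 (adjusted p = 0.0172 and 0.0327). The part of both lists in the Crem difference was not tested. Of 3 nuclear receptor partners of Nr4a factors 2 were kept and 0 called in the 4 comparisons. In the transduced cells Hspa1b, a heat shock protein that responds to handling, was 4.51 higher on the array labelled PDE3B and 2.82 higher on that labelled H801A than with the empty vector, and Fos and Jun were 2.11 and 2.38 higher on the former, while the members Egr1 and Egr2 differed there by 0.11 and -0.37. The part of handling in the vector comparisons was not tested.

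Genes with the most similar pattern were ranked by Pearson r over the 10 arrays among 6778 genes with a range of at least 1 log2 unit. They are the highest of many candidates, and the transduced arrays are a separate experiment, so the values are a description. Crem was most like Cep112 (r = 0.975), Samsn1 (0.965) and Gm2a (0.964). Nr4a3 was most like Dusp4 (0.963), Il2ra (0.959) and Mdfic (0.941), each with its lowest value in CD25neg. Il2ra encodes CD25, by which CD25pos and CD25neg cells were sorted. Egr2 was most like Gfi1 (0.949), Grhl1 (0.919) and Rint1 (0.915), and Egr3 most like Acaa1a (0.954), Cdk16 (0.942) and 4930523C07Rik (0.931).

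Nr4a1 was most like Gsto1 (r = 0.942), Kcnip2 (0.873) and Sdhaf1 (0.866), and Nr4a2 most like Atxn1 (0.985), Lmna (0.979) and Ell2 (0.977), which all have their highest value with the H801A vector. Egr1 was most like Tnpo2 (0.915), Lysmd2 (0.898) and Ap2b1 (0.894), and Per1 most like Nrde2 (0.968), Rbm28 (0.956) and Dnajc27 (0.948). Over the 7 sorted arrays the first place stayed within the first 3 for Nr4a3 (Il2ra, 0.970) and Egr2 (Gfi1, 0.959), and went to Fbxl8 (0.994) for Crem, Ypel2 (0.981) for Nr4a1, Mrps6 (0.998) for Nr4a2, Inpp4b (0.929) for Egr1, Dvl1 (0.980) for Egr3 and Myl4 (0.979) for Per1.

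The members themselves were loosely alike. Over the 7 sorted arrays r was 0.778 for Egr1 and Egr2, 0.754 for Nr4a1 and Nr4a2 and for Nr4a1 and Egr2, and 0.718 for Nr4a2 and Egr2. Egr3 gave 0.337 with Egr2 and -0.644 with Nr4a3. Crem gave 0.601 with Nr4a3 and -0.014 with Egr2. With the transduced arrays added, Egr1 and Egr2 gave -0.067 and Nr4a2 and Per1 went from 0.722 to -0.595.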

How the data were processed

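RNA was extracted with Stat-60 and amplified in 2 rounds before labelling, per the labels' protocols, which shortens products towards the 3′ end. The deposited log2 expression values of 45101 probe sets on 10 arrays were normalized together by the authors, per the series' design text. Its software and method, not given in the sources used here, are unknown, and the log2 scale was read from the values (0.941 to 15.936, array medians 3.04 to 3.22). Arrays carry no counts, and 1 array per group limits the precision.

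Genes were assigned by the platform's annotation. It named 1 gene for 34958 probe sets, several for 932 and none for 9211, and 34754 were matched by Entrez ID to the GRCm38.p6 gene table. Genes were kept where a probe set reached its array's median on at least 1 array, each through its brightest probe set on average. For GFPfoxp3, GFPko and CD25pos a model with terms for population and for IL-2 was fitted over 6 arrays with limma 3.58.1 in R 4.3.3. The 2 residual degrees of freedom are those of the interaction, and the prior had 2.23 (SD 0.129). A run on simulated data, with the same spread for every gene and no interaction, checked the estimated differences. It does not test the p-values on the real data. P-values were adjusted over all 11938 genes (Benjamini-Hochberg) and called under 0.05. Other comparisons hold 1 array a side and were described at 2-fold.

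Named were the 8 members, the 3 genes most like each member, Foxp3 and Pde3b. Of each list at most 4 called genes per comparison were named, or genes at least 2-fold apart where single arrays were compared. Nab2, Hsph1 and Hspa1b with IL-2 and several cell type markers were named outside this rule. The members and lists were chosen with earlier results of these data known. Alternatives were centring of each array, quantile normalization, no filter, the mean of all probe sets, no cross-matching probe sets, an intensity trend with robust variance, single populations or pairs of arrays, the second brightest probe set and a 3-fold threshold.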

Additional observations from a re-analysis of the deposited data

Results flagged for a closer look

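With IL-2, Nr4a3 differed by 0.47 in GFPko and by -0.33 in CD25pos, in opposite directions. Per1 differed by 0.24 in CD25pos and by -0.28 in GFPko, again in opposite directions. Each value is 1 array minus 1 array, and the difference between populations was not tested. The fitted SDs of 0.22 and 0.17 are themselves estimated from such departures, and so give no outside measure of their size.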

How the results depend on the processing

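Crem was called higher in GFPfoxp3 than in CD25pos under every alternative run, with differences of 1.20 to 2.85. Against GFPko its difference ranged from 0.94 to 2.05, and members called went from 1 to 0 with no filter, for the untreated pair alone and for the IL-2-treated pair alone, the pairs with the spread borrowed from the 6 arrays. In GFPko against CD25pos the count went from 0 to 1 with centring, which called Crem (0.97, limma, adjusted p = 0.0228). Calls over all genes went from 892 to 382 with no filter in GFPfoxp3 against GFPko, and from 416 to 864 with centring in GFPko against CD25pos. Centring moves every gene by -0.15 in the former comparison and by 0.14 in the latter. The cause of the lost call with no filter was not tested. Of 713 member values under alternatives 51 changed sign, 24 of them without another choice of probe sets.

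Counts at 2-fold rest on members near the threshold. In CD25pos against CD25neg 1 became 0 with quantile normalization, centring, the mean of probe sets and a 3-fold threshold. In GFPko against CD25neg 2 became 1 with the mean of probe sets and 0 at 3-fold, and in GFPfoxp3 against CD25neg 3 became 1 at 3-fold. With IL-2 in GFPko 1 became 2 with centring and 0 at 3-fold, and in PDE3B against H801A 1 became 0 with centring, the mean of probe sets and at 3-fold. With its second brightest probe set, below the array median on all arrays, Nr4a3 against CD25neg turned to -0.0237 in CD25pos and -0.07 in GFPfoxp3. No paired analysis was possible because each group holds 1 array and the labels give no replicate numbers. Dim signal limits Nr4a2 in sorted cells, near 4 on the log2 scale against array medians of about 3.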
